A study of Mus musculus with 10 samples.

Results

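The genes described here encode the proteins of the cytosolic ribosome. They were chosen by symbol: a gene was taken where the platform annotation gave its probe set a single symbol made of Rps or Rpl and a number, with or without a final a, l or x, or the symbol Rpsa, Rplp0, Rplp1 or Rplp2. Of 18193 genes with a single symbol, 46 were taken, 22 of the small subunit and 24 of the large subunit. Where several probe sets named a gene, the one brightest on average over all 10 arrays was used, on a log2(intensity + 16) scale. The rule itself uses no difference between the groups. Another 28 symbols of the family, among them Rpl3, Rpl5, Rplp1 and Rps13, were named here only by probe sets that also name other genes, so they are not members, and Rps27a and Rpl10l had no probe set of their own.

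The RNA came from the preoptic region of the hypothalamus, cut out by laser capture microdissection. All 10 mice were of the DBA1/lacJ background and received LPS, a bacterial cell wall component, at 120 µg/kg into the peritoneum, and brains were taken after 5 h. By label, 5 were wild-type (WT) and 5 were knockout (KO) for mPGES-1, the enzyme that makes prostaglandin E2 in inflammation, encoded by Ptges. Each mouse gave 1 array, after 2 rounds of RNA amplification. Age, the deleted part of Ptges and whether littermates were used are not stated in the labels. The Ptges probe set read 49.96 ± 24.5 (SD, n = 5) in the mice labelled KO and 4.54 ± 3.09 (SD, n = 5) in those labelled WT, so the transcript read higher where the label names a knockout, and each direction below rests on the labels. Every mouse had LPS, so no response to LPS was measured.

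The ribosome is built from a small subunit, which reads the mRNA, and a large subunit, which joins amino acids and holds the tunnel through which the new chain leaves. Each subunit is made of ribosomal RNA and of many small proteins that are present in one copy, apart from the acidic proteins of the large subunit's stalk. Ribosomal protein mRNAs are among the most abundant of a cell. Most begin with a cytosine followed by a run of pyrimidines, the 5′ terminal oligopyrimidine (TOP) motif, through which their translation follows the activity of the kinase mTOR. In neurons the supply of ribosomes sets how much protein can be made, and inflammation can change translation through this pathway.

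The genome sequences around the annotated transcription starts differ among the members, since some hold a long pyrimidine run and others do not. The 5′ ends of the mRNAs were not measured. A window without a run therefore does not show that the mRNA lacks the TOP motif. Each line gives 30 bases of the sense strand, 15 before and 15 from the RefSeq start in GRCm38.p6, with runs of 5 or more pyrimidines in capitals. They are given for the 2 genes with the smallest p of each subunit that had an entry and for Rpl27a, Rpl7a and Rps6, which were chosen as further examples of run length.
Rpsa: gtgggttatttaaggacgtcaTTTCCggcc
Rps3: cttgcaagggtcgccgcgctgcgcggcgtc
Rpl13a: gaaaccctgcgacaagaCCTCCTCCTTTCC
Rpl35: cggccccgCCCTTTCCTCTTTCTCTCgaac
Rpl27a: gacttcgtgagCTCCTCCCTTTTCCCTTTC
Rpl7a: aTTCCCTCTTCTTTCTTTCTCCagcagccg
Rps6: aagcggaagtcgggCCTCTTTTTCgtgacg
These windows lie at chr9:120127751-120127780 (plus strand) for Rpsa, chr7:99483695-99483724 (minus strand) for Rps3, chr7:45128731-45128760 (minus strand) for Rpl13a and chr2:39005117-39005146 (minus strand) for Rpl35. The window of Rpl27a is chr7:109519180-109519209 (plus strand), that of Rpl7a is chr2:26910792-26910821 (plus strand) and that of Rps6 is chr4:86857353-86857382 (minus strand). Each spans the end of the promoter and the first bases of the 5′ untranslated region of the first exon. Within these 30 bases the longest pyrimidine run was 21 bases in Rpl7a, 19 in Rpl27a, 18 in Rpl35 and 13 in Rpl13a, against 10 in Rps6, 5 in Rpsa and 3 in Rps3. The runs of Rpl27a and Rpl13a reach the end of the window, so they may be longer.

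Of the 46 members, 40 had an entry in the RefSeq promoter table. A run of 8 or more pyrimidines (C or T) on the sense strand within 20 bases of the start was present in 19 of the 40 (47.5%) and in 18.4% of all 27025 genes. The letters CTTTCC on the sense strand in the same stretch were present in 7 of 40 (17.5%) against 2.3% of all genes, and these letters can lie within the pyrimidine run. In the whole entry, from 250 bases before to 50 after the start, CCGGAAG on either strand was found in 20 of 40 members (50%) against 9.93%, and AAGATGGC on either strand in 3 of 40 (7.5%) against 3.19%. Matches describe the letters only. The 19 tested members with the pyrimidine run had a median difference between the groups of -0.33, and the 17 without it had -0.30, on the log2 scale used below.

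A few facts of the whole series bear on these genes. The arrays had the same trimmed mean intensity, 200.002, while the 99th percentile of intensity lay between 8650 and 9411 on the arrays labelled WT and between 7582 and 8331 on those labelled KO. Control RNAs added before hybridization read a median of 684 to 2055 on the WT arrays and 407 to 862 on the KO arrays, and the B1/B2 repeat controls 40328 to 91278 against 26017 to 40334. Control RNAs added before amplification read a median of 814 to 3591 on 7 arrays and of 14.2 or less on WT replicates 2 and 5 and KO replicate 3. Values were read as deposited and after quantile normalization, which gives every array the same distribution of intensities. As deposited, 12 of 10916 tested genes passed the limma threshold (adjusted p below 0.05), 3 higher and 9 lower in the mice labelled KO. That is 0.11% of the genes. After quantile normalization 0 passed (0%, with 1676 genes at an unadjusted p below 0.05). Centring the arrays on their medians shifted the median difference of all genes from -0.02 to 0.26 and turned the split of calls to 952 higher and 31 lower.

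As deposited, ribosomal protein genes read lower in the mice labelled KO. Of the 41 members bright enough to test, 36 had a difference below 0, where 52.2% of all tested genes did. Their median difference was -0.33, and that of all tested genes was -0.02 (log2, KO minus WT). None of the 41 passed the limma threshold, and the smallest adjusted p was 0.0522 (Rpsa). At an unadjusted p below 0.05, 19 members were lower and 0 higher, where 10.1% of all tested genes were lower and 7.95% higher. In 10 members every KO array read below every WT array, a separation that 3.13% of all tested genes showed. Without WT replicate 5 Rpsa passed it (limma adjusted p = 0.0462, against 0.0516 to 0.14 without any other array) and was the only member to do so when 1 array was left out as deposited.

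**Figure D1:**
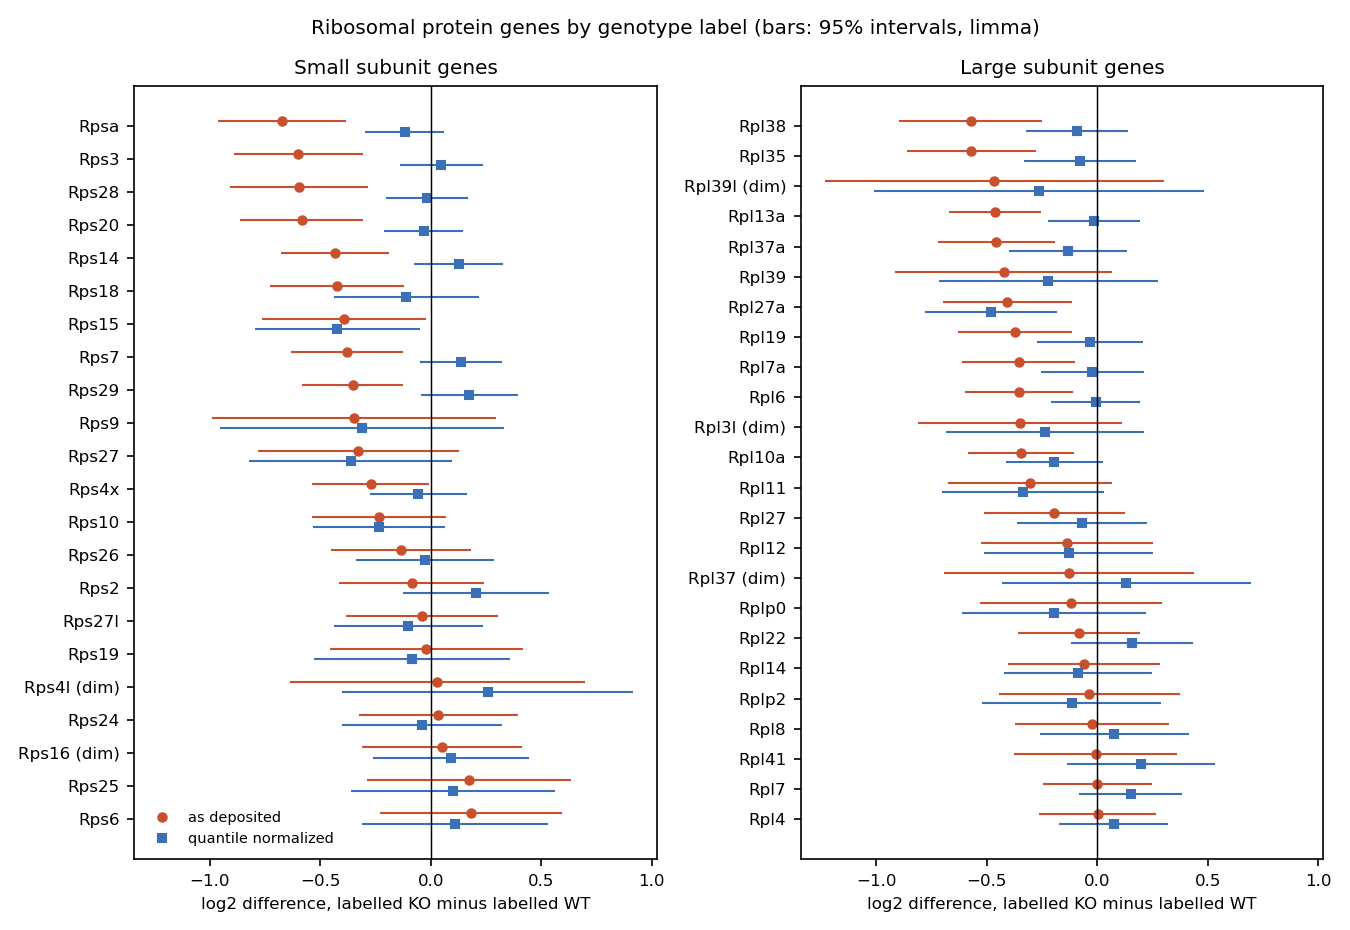
Log2 difference (labelled KO minus labelled WT) of each ribosomal protein gene, small subunit on the left and large subunit on the right, as deposited (circles) and after quantile normalization (squares), with 95% limma intervals (n = 5 arrays per group; dim genes, left out of the main test, are marked). As deposited 36 of the 41 tested genes lie below 0, with a median of -0.33, and after quantile normalization 29 do, with a median of -0.06.

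After quantile normalization most of this difference was gone. Of the 41 members 29 were below 0 (48.4% of all tested genes were), with a median of -0.06 against 0.01 for all tested genes. No member passed the limma threshold, and the smallest adjusted p was 0.144. At an unadjusted p below 0.05, 2 members were lower, Rpl27a and Rps15, and 0 were higher, where 7.33% of all tested genes were lower and 8.02% higher. With median centring, which raised the median of all genes to 0.26, 22 of 41 members were below 0, with a median of -0.049. Median centring adds the same constant to every gene's difference. The gap between the members' median and that of all genes is therefore the same as before centring. With that scaling 2 members, Rps3 and Rpsa, passed the limma threshold as lower, as did 31 of all 10916 tested genes, and 952 passed as higher. In 1 member, Rpl27a, the groups after quantile normalization stayed apart, as they did in 2.23% of all tested genes. Which scaling is nearer to the RNA content of the tissue was not tested, and in such dissected tissue fewer cells of a type and less RNA per cell cannot be told apart.

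The small subunit genes had a median difference of -0.34, with 17 of 20 tested members below 0, 10 lower at an unadjusted p below 0.05 and 6 with separate groups. Of all tested genes 10.1% were lower at that p and 3.13% had all KO arrays below all WT arrays. After quantile normalization 13 of 20 members were below 0 with a median of -0.04. At an unadjusted p below 0.05, 1 was lower, where 7.33% of all tested genes were. The largest difference was that of Rpsa, which encodes a protein needed to mature the small subunit and is also known as the laminin receptor. Rpsa had intensities of 31121, 48425, 35819, 44788 and 33709 in WT replicates 1 to 5 and of 27510.4, 23487, 25122, 23883 and 20178 in KO replicates 1 to 5. All KO arrays were below all WT arrays, with WT replicates 2 and 4 the highest and KO replicate 5 the lowest. The log2 difference was -0.68 (SE 0.14, limma adjusted p = 0.0522), and -0.12 (SE 0.084, limma adjusted p = 0.534) after quantile normalization.

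Rps3 encodes a protein at the entry of the mRNA channel. Its intensities were 42266, 60622, 45353, 55274 and 39938 in WT replicates 1 to 5, and 35070.2, 30526, 30699.8, 37216 and 26229 in KO replicates 1 to 5. The groups did not overlap. The difference was -0.60 as deposited (SE 0.14, limma adjusted p = 0.0583) and turned to 0.047 after quantile normalization (SE 0.088, limma adjusted p = 0.842). Rps20, of the head of the small subunit, read 32562, 46456, 33054, 32269.9 and 29043 in the WT replicates and 25016, 23473, 21054, 25012 and 19933 in the KO replicates. WT replicate 2 stood far above the other WT arrays, and each KO array was below each WT array. Its difference of -0.58 (SE 0.13, limma adjusted p = 0.0581) became -0.032 after quantile normalization.

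Rps28, which lies near the exit of the mRNA channel, read 31644, 49113, 35095, 38052 and 27228 in the WT replicates and 23958, 24913, 21848, 27408 and 20033 in the KO replicates. The groups met at their edges, since KO replicate 4 was above WT replicate 5. The difference was -0.60 (SE 0.15, limma adjusted p = 0.0685), and -0.019 after quantile normalization. Rps14, a protein of the small subunit's platform, differed by -0.43 (SE 0.12, limma adjusted p = 0.0777), and by 0.13 after quantile normalization. Rps29, a zinc-binding protein, differed by -0.35 (SE 0.11, limma adjusted p = 0.109) and Rps7, which can bind the p53 regulator Mdm2, by -0.38 (SE 0.12, limma adjusted p = 0.116). Quantile normalization turned both, Rps29 to 0.17 and Rps7 to 0.14. In both genes the groups were apart as deposited and overlapped after it.

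Among the probe sets that the rule used, the largest positive differences of the small subunit were those of Rps6 and Rps25. Rps6, the protein that S6 kinases phosphorylate when mTOR is active, read 314, 441, 259, 515 and 399.6 in WT replicates 1 to 5 and 525, 383, 355, 423 and 477 in KO replicates 1 to 5. The groups overlapped widely, and its difference of 0.18 (SE 0.19, limma adjusted p = 0.656) was 0.11 after quantile normalization. Rps25, which some internal ribosome entry sites depend on, had a difference of 0.17 (SE 0.22, limma adjusted p = 0.714), with KO intensities from 290.2 in replicate 3 to 741 in replicate 5. As deposited, brighter probe sets that also name other genes had the opposite sign. The 4 brightest that name Rps6 with its pseudogene Rps6-ps4 were at -0.49, -0.62, -0.60 and -0.37 as deposited, and at 0.22, 0.028, -0.023 and 0.19 after quantile normalization. The one that names Rps25 with other genes was at -0.32, and at -0.37 after quantile normalization. Rps27l, a paralog of Rps27 that p53 induces, was at -0.040 (SE 0.16, limma adjusted p = 0.922) and at -0.10 after quantile normalization.

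The large subunit genes had a median difference of -0.30, with 19 of 21 tested members below 0, 9 lower at an unadjusted p below 0.05 and 4 with separate groups. The shares of all tested genes were 10.1% for that p and 3.13% for separate groups, lower in KO. After quantile normalization 16 of 21 were below 0, with a median of -0.08. Rpl13a, a large subunit protein that can leave the ribosome in interferon-treated cells, had the smallest p of the subunit. Its intensities were 24904, 25934, 23184, 24536 and 26733 in WT replicates 1 to 5 and 19248, 18509.9, 17426, 18329 and 17407 in KO replicates 1 to 5. The replicates of each group lay close together and the groups were well apart. The difference was -0.46 (SE 0.098, limma adjusted p = 0.0554) as deposited and -0.015 (SE 0.099, limma adjusted p = 0.963) after quantile normalization.

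Rpl38, which mouse embryos need to translate several Hox mRNAs, read 27609.8, 35350.1, 32898, 25744 and 23302 in the WT replicates and 22988, 18132, 16284, 24434 and 15915 in the KO replicates. KO replicate 4 was above WT replicate 5, so the groups overlapped. Rpl38 differed by -0.57 (SE 0.15, limma adjusted p = 0.0777), and by -0.093 after quantile normalization. Rpl35, at the end of the exit tunnel, read 29602, 41417, 24824, 28642 and 31812 in the WT replicates and 25468, 20460.2, 19375, 19807 and 19152 in the KO replicates. KO replicate 1 stood apart from the other KO arrays and was above WT replicate 3. Rpl35 differed by -0.57 (SE 0.14, limma adjusted p = 0.0685), and by -0.080 after quantile normalization.

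Other large subunit genes had differences of like size that also shrank. Rpl37a, a zinc-binding protein, was at -0.46 (SE 0.12, limma adjusted p = 0.0831) with separate groups, and at -0.13 after quantile normalization. Rpl19, which forms a bridge to the small subunit, was at -0.37 (SE 0.12) and Rpl6 at -0.36 (SE 0.11). They were at -0.033 and -0.0068 after quantile normalization. Rpl10a, the protein tagged in mice made to purify ribosomes of chosen cells, was at -0.34 (SE 0.11, limma adjusted p = 0.126) with separate groups, and at -0.19 after quantile normalization.

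The stalk proteins, which recruit elongation factors, had differences smaller than their standard errors. Rplp0, the base of the stalk, was at -0.12 (SE 0.19, limma adjusted p = 0.79) and Rplp2, one of its acidic proteins, at -0.036 (SE 0.19, limma adjusted p = 0.943). They were at -0.20 and -0.12 after quantile normalization, and at 0.16 and 0.24 with median centring, where the median of all genes was 0.26. Their 95% intervals, -0.53 to 0.29 and -0.45 to 0.37, include the median of the members as well as 0. Rpl11, which binds Mdm2 when ribosome assembly is disturbed, read 2019.5, 2206, 1770.4, 2326 and 2568 in the WT replicates and 2248, 1769, 1247, 1479 and 2223 in the KO replicates. KO replicates 3 and 4 were the lowest, KO replicate 2 was just below the lowest WT array, and KO replicates 1 and 5 lay among the WT arrays. Rpl11 differed by -0.30 (SE 0.17, limma adjusted p = 0.373), and by -0.34 after quantile normalization. Rpl4 and Rpl7, core proteins of the large subunit, were at 0.0013 (SE 0.12) and 0.00065 (SE 0.12) as deposited, the highest values of the subunit, and at 0.075 and 0.15 after quantile normalization.

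The paralogs known from other tissues were dim. Rpl3l, of striated muscle, read between 1.33 and 22.5 over the arrays. Rpl39l, of testis, read between 8.75 and 80.4, and Rps4l, a paralog of Rps4x, between 4.09 and 39.3. With Rps16 and Rpl37 these are the 5 members below the filter on dim genes. Rps16 and Rpl37 were dim only in the probe set that names them alone, since the brightest probe sets naming them with other genes had mean log2 levels of 14.86 and 11.68, with differences of -0.55 and -0.0089 (0.017 and 0.026 after quantile normalization). In the fit without that filter their differences were -0.35 (SE 0.22) for Rpl3l, -0.47 (SE 0.36) for Rpl39l and 0.029 (SE 0.32) for Rps4l, and limma adjusted p was 0.462 or more. Rpl39, a small protein of the exit tunnel, was just above the filter at 36.8 to 95.4, and its difference was -0.42 (SE 0.23, limma adjusted p = 0.349). A probe set that names Rpl39 with another gene had a mean log2 level of 13.76 and a difference of -0.48, or -0.19 after quantile normalization.

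Most of the largest differences were those of the brightest probe sets. Brightness also depends on the probes, so it does not rank the genes by expression. Of the 41 tested members, 27 lay in the brightest 10% of tested genes and 10 in the brightest 1%. As deposited, all 10 members and all 100 other genes of the brightest 1% were below 0, with medians of -0.57 and -0.49, and the groups were apart in 60% and 38% of them. After quantile normalization 6 of these 10 members were below 0 (median -0.017), as were 48 of the 100 others (median 0.0036). That scaling gives the top ranks of every array the same values, so a difference shared by the brightest genes is largely removed by it. Its loss in these genes therefore does not show whether their RNA differed. The difference between these members and the other genes of their brightness was not tested.

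**Figure D2:**
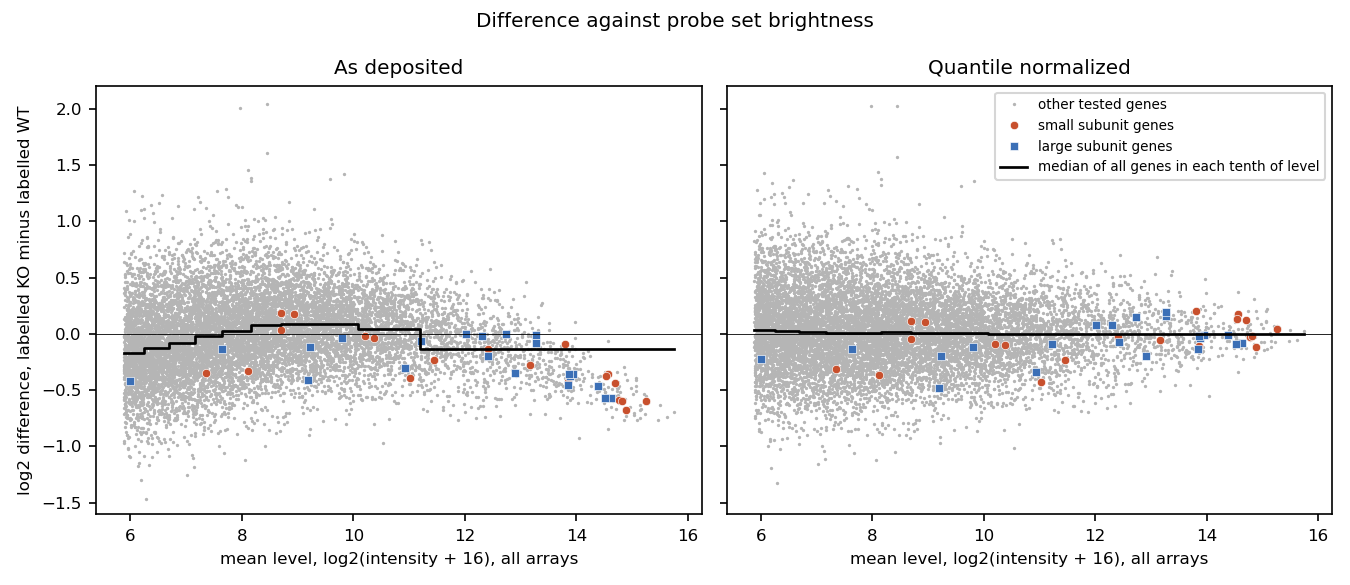
Log2 difference (labelled KO minus labelled WT) of all 10916 tested genes against mean log2(intensity + 16), as deposited on the left and quantile normalized on the right, with small subunit genes as circles, large subunit genes as squares and a line at the median of genes in 10 classes of level. As deposited the line falls to -0.14 in the brightest 10% and the 10 members of the brightest 1% have a median of -0.57, and after quantile normalization the line runs close to 0.

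Members outside the brightest 1% had smaller medians as deposited. The 17 in the rest of the brightest 10% had a median of -0.19 as deposited, with 15 below 0, where the other genes of that range had -0.11. After quantile normalization their median was -0.026, with 11 below 0. The 14 below the brightest 10% had a median of -0.13, with 11 below 0, where other genes had -0.0024. After quantile normalization 12 of these 14 were below 0, with a median of -0.16 against 0.013 for the other genes. Of the 14, Rpl27a and Rps15 (14.3%) were lower at an unadjusted p below 0.05 in both scalings, where 8.02% of the other genes of that range were as deposited and 7.09% after quantile normalization.

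Rpl27a, a large subunit protein, was the member whose groups stayed apart in both scalings. As deposited it read 636, 692, 677, 625 and 669 in WT replicates 1 to 5 and 428, 544, 452, 515 and 539 in KO replicates 1 to 5. After quantile normalization the values were 649, 731, 697, 634 and 673 in the WT replicates and 420.3, 532, 434, 504 and 520.1 in the KO replicates. The difference was -0.41 (SE 0.14, limma adjusted p = 0.14) and -0.48 (SE 0.14, limma adjusted p = 0.144). Its probe set is not of the brightest kind, at percentile 80.8 of all genes. Its second probe set, below the filter, was at 0.28 as deposited and 0.39 after quantile normalization. A brighter probe set that names Rpl27a with other genes (mean log2 level 11.57) was at -0.15 in both scalings.

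Rps15, a protein near the decoding site, read 1796, 2334, 2292, 2744 and 2808 in the WT replicates and 2243, 1984, 1316, 2122 and 1501 in the KO replicates. KO replicates 3 and 5 were the lowest, and the other KO arrays lay among the WT arrays. Rps15 differed by -0.39 (SE 0.17, limma adjusted p = 0.246), and by -0.42 (SE 0.18, limma adjusted p = 0.269) after quantile normalization. With 1 array left out after quantile normalization Rps15 stayed at -0.52 to -0.31, and its unadjusted limma p was no longer below 0.05 where that array was WT replicate 4, WT replicate 5, KO replicate 3 or KO replicate 5. Neither Rpl27a nor Rps15 passed the threshold over all genes.

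The mean of the 10 brightest members was 14.97 ± 0.18 (SD, n = 5) on the WT arrays and 14.44 ± 0.13 on the KO arrays as deposited, with no overlap. After quantile normalization, which largely removes a difference shared by the brightest genes, it was 14.71 ± 0.076 and 14.72 ± 0.070. The mean of the 14 members below the brightest 10% was 9.09 ± 0.17 on the WT arrays and 8.94 ± 0.21 on the KO arrays as deposited, and 9.11 ± 0.17 and 8.92 ± 0.21 after quantile normalization. In these 14 the groups overlapped, and KO replicate 3 was the lowest array, at 8.59 as deposited.

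**Figure D3:**
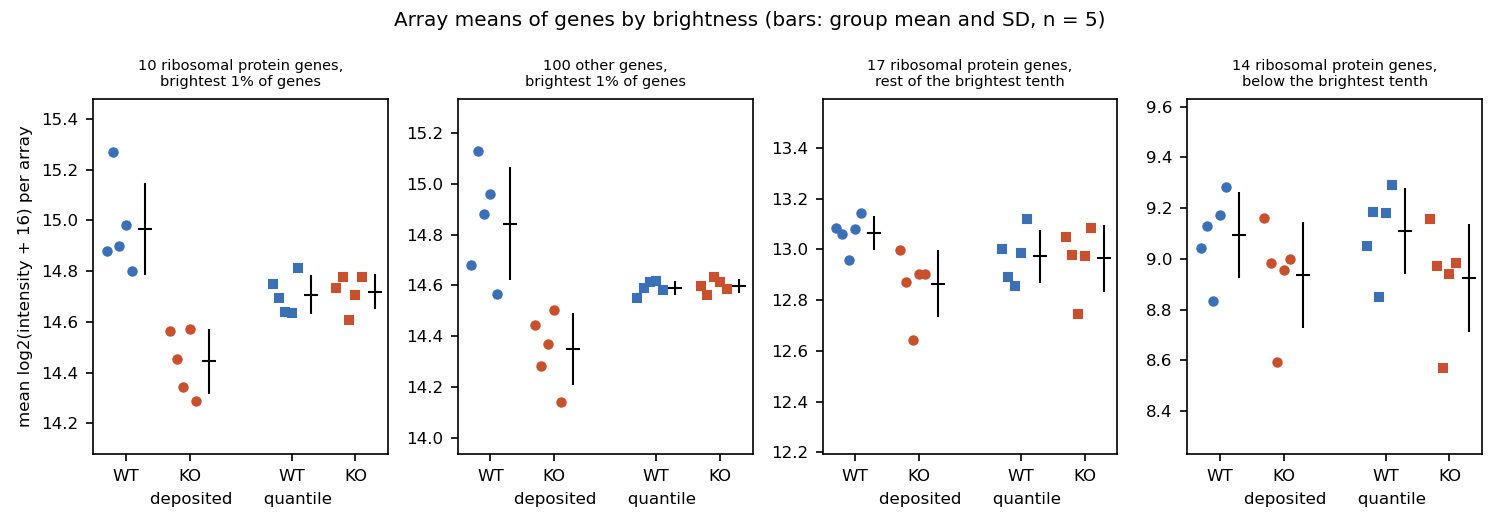
Mean log2(intensity + 16) of each array over the 10 ribosomal protein genes and the 100 other genes of the brightest 1%, the 17 ribosomal protein genes in the rest of the brightest 10% and the 14 below it, with group means and SD (n = 5), as deposited (circles) and quantile normalized (squares). The groups are apart as deposited for the 10 brightest members (14.80 to 15.27 in WT, 14.29 to 14.57 in KO) and overlap after quantile normalization.

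Single arrays weighed on the smaller differences. KO replicate 3 was the lowest of all 10 arrays in 21 of 41 members as deposited and in 18 after quantile normalization, and KO replicate 5 was the lowest in 10 as deposited and in 1 after quantile normalization. WT replicate 2 was the highest in 16 as deposited and in 7 after quantile normalization. Without KO replicate 3, 30 of 41 members were below 0 as deposited, with a median of -0.24, and the median of the large subunit genes moved from -0.30 to -0.18. After quantile normalization without KO replicate 3, 20 of 41 were below 0, with a median of 0.0047, and without WT replicate 5, 21 were, with a median of -0.0017. KO replicate 3, WT replicate 2 and WT replicate 5 are the arrays without clear signal of the RNAs added before amplification. With the presence of that signal as a block on all 10 arrays, 37 of 41 members were below 0 as deposited, with a median of -0.32. Within the 7 arrays that had it, 29 of 41 were, with a median of -0.16. With the hybridization control signal as a covariate 39 of 41 were below 0, with a median of -0.34 (-0.02 for all tested genes). In that fit 4 small subunit genes were lower at an unadjusted limma p below 0.05, against 10 without the covariate. For the large subunit the counts were 8 and 9. These controls read a median of 1655 on the WT arrays and 812 on the KO arrays, so the covariate is not independent of the label.

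**Figure D4:**
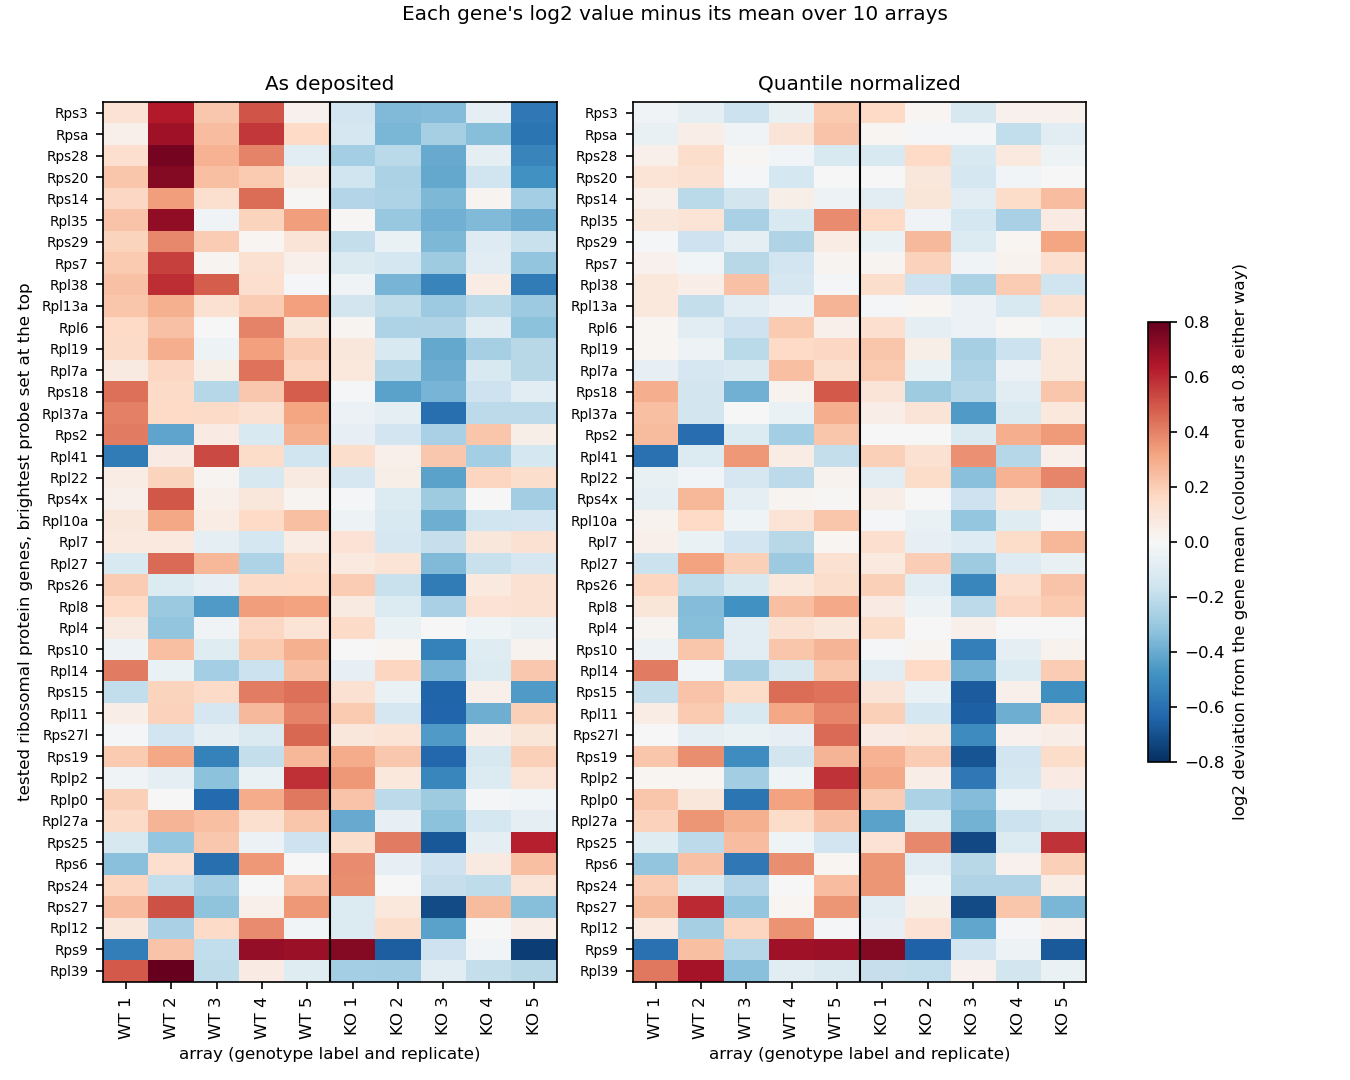
Log2 value of each of the 41 tested ribosomal protein genes on each array minus the gene's mean over the 10 arrays, as deposited on the left and quantile normalized on the right, with genes ordered by brightness. As deposited the upper rows are high in the WT arrays and low in the KO arrays, and KO replicate 3 is the lowest array in 21 of 41 genes, and in 18 after quantile normalization.

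The median SD within a group was 0.23 over the tested members and 0.32 over all tested genes as deposited (log2 scale), and 0.22 and 0.32 after quantile normalization. The 95% interval of a member's difference was still wide against its size, from -0.97 to -0.39 for Rpsa and from -0.70 to -0.11 for Rpl27a.

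The members' other probe sets mostly had the same sign. There were 100 probe sets that named a single member, and 82 were above the filter, of which 71 were below 0 as deposited (median -0.23) and 56 after quantile normalization (median -0.073). The 41 of these that the rule did not use were below 0 in 35 cases, with a median of -0.20. Of 19 genes with more than 1 probe set above the filter, 13 were below 0 in all of them and 6 were mixed. Probe sets of 1 gene share their RNA and are not replicates.

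The choice of probe set mattered most in Rpl41, which encodes the shortest of the ribosomal proteins. From the brightest to the dimmest, its 4 probe sets above the filter were at -0.0077, -0.026, -0.55 and -0.80. After quantile normalization they were at 0.20, 0.12, -0.61 and -0.71. In Rps24 the probe sets above the filter ran from -0.17 to 0.42, in Rps10 from -0.23 to 0.24, and in Rpl27 from -0.45 to -0.035. Ribosomal protein genes have many pseudogene copies of near-identical sequence. Of the 41 tested members 14 were read from a probe set ending in _x_at or _s_at, names that mark probes shared with other transcripts, so those values are uncertain as to the copy measured.

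Probe sets that name a family symbol together with other genes, which the rule left out, went the same way. Of 99 above the filter 90 were below 0 as deposited, with a median of -0.30, and 70 after quantile normalization, with a median of -0.10. Among them 68 belonged to symbols with no member, such as Rpl3, Rpl5 and Rplp1. Of these 60 were below 0 (median -0.26), and 48 after quantile normalization (median -0.10). The 99 probe sets were bright, with a median log2 level of 12.38, where the brightest 10% of tested genes began at 11.21. Of the genes in that 10% other than members, 68.3% were below 0 as deposited and 49.2% after quantile normalization.

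Other genes of protein synthesis were read in the same fit, and 0 genes of each list passed the limma threshold. Of 4 ribosomal proteins with symbols of another form, 1 was below 0, with a median of 0.18 as deposited and 0.13 after quantile normalization. Fau, a small subunit protein made as a ubiquitin-like fusion, was at -0.27 (SE 0.15, limma adjusted p = 0.337), and Rps3a1 at 0.19 (SE 0.15, limma adjusted p = 0.538), or at -0.26 and 0.34 after quantile normalization. Of 7 elongation factors 5 were below 0, with a median of -0.30, and 4 after quantile normalization, with a median of -0.20. Eef1d, which recharges the factor that brings in aminoacyl-tRNA, was at -0.60 (SE 0.19, limma adjusted p = 0.124), and at -0.56 after quantile normalization. Eef1a1, that factor itself and a bright probe set with a TOP mRNA, turned from -0.30 (SE 0.15, limma adjusted p = 0.299) to 0.31.

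Of 40 initiation factors 23 were below 0 (median -0.045), and 20 after quantile normalization (median 0.0096). Eif3c, of the complex that loads the small subunit on mRNA, was at -0.71 (SE 0.14, limma adjusted p = 0.0522), and at -0.46 after quantile normalization. With probe sets ending in _x_at or _s_at used only in the absence of others, Eif3c was at 0.18. Eif2s3x, of the factor that carries the initiator tRNA, was at 0.70 (SE 0.19, limma adjusted p = 0.0831), and at 0.65. The regulators of TOP mRNAs were below 0 in 5 of 12 cases (median 0.11), with Cnbp, which binds pyrimidine-rich 5′ ends, at 0.34 (SE 0.15) and Ssb, the La protein, at 0.86 (SE 0.43).

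Of 25 ribosome biogenesis genes 14 were below 0 (median -0.073), and 12 after quantile normalization (median 0.012). Nop2, an rRNA methyltransferase of the nucleolus, was at -0.70 (SE 0.19, limma adjusted p = 0.0851), and Bms1, a GTPase of small subunit assembly, at -0.41 (SE 0.14, limma adjusted p = 0.141). The mitochondrial ribosomal proteins, which build the separate ribosome of mitochondria, were below 0 in 47 of 71 cases (median -0.091), and in 49 of 71 after quantile normalization (median -0.13). Mrpl52 was at -0.56 (SE 0.15, limma adjusted p = 0.0763) and Mrpl39 at -0.49 (SE 0.13, limma adjusted p = 0.0814), or at -0.47 and -0.26 after quantile normalization. Differences between these lists and the cytosolic ribosomal protein genes were not tested.

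Preoptic and hypothalamic markers were on the arrays for 10 of 11 genes, and their mean log2 level was 7.76 to 8.19 on the WT arrays and 7.86 to 8.38 on the KO arrays. Neuron markers, 8 of 8, had means of 10.14 to 10.60 and 10.36 to 10.74. Markers of striatum and septum, which border the region, were on the arrays for 8 of 10 genes, with means of 7.25 to 7.73 on the WT arrays and 7.61 to 8.64 on the KO arrays. The median difference of the striatum and septum list was 0.68 as deposited and 0.72 after quantile normalization. In that list Tac1 passed the limma threshold as deposited.

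Oligodendrocyte markers, 5 of 6 on the arrays, had means of 10.29 to 10.68 on the WT arrays and 9.68 to 10.15 on the KO arrays, with no overlap. Their median difference was -0.48 as deposited and -0.18 after quantile normalization, and 0 passed the threshold. Astrocyte markers, 6 of 6, had means of 11.97 to 12.22 and 11.71 to 12.06, and microglia markers, 6 of 6, 8.15 to 8.49 and 7.82 to 8.40. Means for endothelium and pericytes were 7.19 to 7.56 and 6.76 to 7.57, for choroid plexus 6.06 to 7.24 and 6.35 to 7.99, and for blood 5.16 to 6.94 and 4.70 to 6.25, each with members too dim to test. The lowest list mean on any array was 4.70, that of blood. A constant was added to every intensity, so the scale of these means cannot reach 0. A list mean above 0 therefore does not show that a cell type was detected. The part of the makeup of the dissected tissue in the ribosomal protein differences was not tested.

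The 3′ signal of Gapdh over its middle, a sign of RNA quality and of amplification length, was 3.54 to 4.11 on the WT arrays and 3.38 to 3.89 on the KO arrays (log2 ratio). That of Actb was 4.77 to 5.26 and 4.26 to 4.85. KO replicate 3 had the lowest ratio of all 10 arrays for both genes. The part of these ratios in the result was not tested.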

How the data were processed

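Signals were read from 10 arrays of 45101 probe sets, 1 per mouse. The deposited values are linear intensities from the authors, and the submitters' processing notes name GCOS as the software, without version or settings. Each array had a trimmed mean of 200.002 (2% left out at each end), so the arrays share a mean but not a distribution. The signal of RNA amplified in 2 rounds leans to the 3′ end. Any 2 arrays shared at most 0.00443% of their values.

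Probe sets were named from the platform annotation. Values were taken as log2(intensity + 16), 1 probe set per gene, the brightest over all arrays. The dimmest 40% of 18193 genes (mean below 5.89) were left out. Differences are labelled KO minus labelled WT on that log2 scale, which understates those of dim genes. They were tested with limma 3.58.1 in R 4.3.3 (lmFit and eBayes with an intensity trend), two-sided, with Benjamini-Hochberg adjustment over 10916 genes, as deposited and after quantile normalization. The scripts were tested on simulated data. Figures and promoter searches used Python 3.11.15, pandas 2.3.3, numpy 2.4.6 and matplotlib 3.10.9, and the promoter sequences are RefSeq's, GRCm38.p6.

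The members and lists were chosen with earlier results of these data known. Members named with values were those with the smallest p of each subunit, the largest positive differences, the largest moves under quantile normalization, the most discordant probe sets and a set of well-known ones. Rpl10a, Rpl27a, Rps15, Rps4x and Rps7 were named after their values were seen, and the brightness classes, array means, other probe sets and motif searches were also added then. Same-numbered arrays did not deviate together, so no pairing was used. The labels give each array its own mouse and say nothing of litters or sessions. The p-values thus rest on the spread between arrays, in which mouse, dissection, amplification and hybridization cannot be told apart. Alternatives were other scalings, pseudocounts, filters, probe set rules, weights, blocks and leaving out each array. Single markers of some tissue lists are not reported here.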

Additional observations from a re-analysis of the deposited data

Results flagged for a closer look

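Of 94 gene and group sets of 5 arrays, 7 held an array far from the others (log2 scale, gap over range above 0.71). Chance gives about 1 in 20, and the flags fell on the following genes. Rpl35 read 14.64 on KO replicate 1, where the other KO arrays read 14.23 to 14.32. Rpl4 read 12.17 on KO replicate 1, where the other KO arrays read 11.96 to 12.01. Rps10 read 10.91 on KO replicate 3, where the other KO arrays read 11.36 to 11.48. Rps20 read 15.50 on WT replicate 2, where the other WT arrays read 14.83 to 15.01. Rps27l read 10.84 on WT replicate 5, where the other WT arrays read 10.22 to 10.36. Rps27l read 9.92 on KO replicate 3, where the other KO arrays read 10.43 to 10.48. Rps4x read 13.66 on WT replicate 2, where the other WT arrays read 13.19 to 13.26.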

How the results depend on the processing

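The number of genes past the limma threshold, 12 as deposited, was 0 with quantile normalization (1676 at an unadjusted p below 0.05), without the intensity trend (1958), with a block for the amplification controls (1971), with both (1633), with the hybridization controls as a covariate (1354) and within the 7 arrays with amplification control signal (1567). It was 983 with median centring, 174 with array weights, 88 with the dimmest 60% left out, 23 with other probe sets preferred to _x_at and _s_at, 3 with no filter, 1 with probe sets averaged per gene, and 0 to 35 with 1 array left out (as deposited, 35 when WT replicate 5 was the array in question, 32 for WT replicate 3, 21 for KO replicate 1, 5 for KO replicate 4 and 0 for each of the rest, and at most 13 after quantile normalization). Members past the threshold were Rps3 and Rpsa with median centring (2 small subunit genes), Rpl13a, Rps20 and Rpsa with the dimmest 60% left out (2 small, 1 large), Rpsa with other probe sets preferred (1), and Rpl13a, Rpl35, Rps20, Rps3 and Rpsa with array weights (3 small, 2 large). With 1 array left out the small subunit had 0 to 1 and the large subunit 0. The count of small subunit genes lower at an unadjusted p below 0.05 was 1 with quantile normalization with or without the block, 4 with median centring and with the covariate, and with 1 array left out 8 to 10 as deposited and 0 to 2 after quantile normalization. For the large subunit it was 1 with quantile normalization with or without the block, 2 with median centring, 5 within the 7 arrays, and with 1 array left out 9 to 10 as deposited and 1 to 3 after quantile normalization. Of all 10916 tested genes, 10.1% were lower at that p as deposited and 7.33% after quantile normalization. For the other settings only genes in either direction were counted. They were 3172 with median centring, 1354 with the covariate and 1567 within the 7 arrays. With 1 array left out they were 1609 to 2172 as deposited and 1318 to 1903 after quantile normalization. The small subunit median was -0.037 with quantile normalization, -0.052 with its block, -0.059 with median centring, -0.16 within the 7 arrays, and with 1 array left out -0.38 to -0.26 as deposited and -0.077 to 0.012 after quantile normalization. The large subunit median was in the same order -0.080, -0.057, -0.024, -0.19, -0.37 to -0.18 and -0.12 to 0.0019. Replicate numbers are shared by both groups but did not pair the arrays (same-number correlations of -0.15 to 0.07). The fit with the replicate number as a block called 1 gene and 0 members. Some genes turned sign. With array weights they were Rpl4 at -0.035 and Rps4l at -0.034. With the hybridization controls as a covariate they were Rpl4 at -0.086, Rpl41 at 0.30, Rpl7 at -0.10, Rps24 at -0.23, Rps25 at -0.0084, Rps3a1 at -0.024 and Rps4l at -0.34. With probe sets averaged per gene they were Rps27l at 0.031. With median centring, which moved the median of all genes to 0.26 and so shifts every gene upward, they were Fau at 0.0069, Rpl27 at 0.085, Rpl41 at 0.27, Rplp0 at 0.16, Rplp2 at 0.24, Rps10 at 0.045, Rps27l at 0.24 and Rps4x at 0.0061. With other probe sets preferred to _x_at and _s_at they were Eif3c at 0.18. With a pseudocount of 64 they were Rps4l at -0.0081. With quantile normalization they were Eef1a1 at 0.31, Rpl41 at 0.20, Rps14 at 0.13, Rps24 at -0.042, Rps29 at 0.17, Rps3 at 0.047 and Rps7 at 0.14. With quantile normalization and a block for the amplification controls they were Eef1a1 at 0.30, Rpl41 at 0.21, Rps14 at 0.10, Rps24 at -0.054, Rps25 at -0.0029, Rps29 at 0.16, Rps3 at 0.051 and Rps7 at 0.14. With that block alone they were Rpl4 at -0.020, Rpl41 at 0.0043 and Rpl7 at -0.0041. Within the 7 arrays with signal of those controls they were Rpl27 at 0.0028, Rpl4 at -0.067, Rplp0 at 0.041, Rplp2 at 0.24 and Rps27l at 0.16. With 1 array left out as deposited, the genes that turned were Rpl4, Rpl41, Rpl7, Rplp2, Rps24, Rps27l and Rps4l. With 1 array left out, the ranges as deposited and then after quantile normalization were Eef1a1 -0.39 to -0.19 and 0.25 to 0.35, Rpl13a -0.49 to -0.44 and -0.063 to 0.052, Rpl19 -0.44 to -0.32 and -0.093 to 0.030, Rpl27 -0.28 to -0.11 and -0.15 to 0.0035, Rpl35 -0.65 to -0.46 and -0.15 to 0.0045, Rpl4 -0.078 to 0.043 and -0.00087 to 0.11, Rpl41 -0.15 to 0.12 and 0.073 to 0.31, Rpl6 -0.40 to -0.30 and -0.048 to 0.044, Rpl7 -0.034 to 0.047 and 0.10 to 0.20, Rplp2 -0.13 to 0.11 and -0.21 to 0.013, Rps14 -0.49 to -0.38 and 0.082 to 0.16, Rps24 -0.056 to 0.094 and -0.13 to 0.014, Rps25 0.038 to 0.36 and -0.030 to 0.29, Rps27l -0.084 to 0.070 and -0.14 to 0.010, Rps28 -0.69 to -0.48 and -0.062 to 0.013, Rps29 -0.39 to -0.30 and 0.12 to 0.22, Rps3 -0.67 to -0.52 and 0.010 to 0.11, Rps4l -0.18 to 0.17 and 0.068 to 0.42, Rps4x -0.31 to -0.18 and -0.086 to 0.0023, Rps6 0.056 to 0.29 and -0.020 to 0.22, Rps7 -0.42 to -0.29 and 0.10 to 0.16. Of the named members, Rpsa, Rps15, Rps20, Rpl10a, Rpl11, Rpl27a, Rpl37a, Rpl38, Rpl39, Rpl39l and Rpl3l kept their direction in all 35 settings. Their values nearest to 0 lay between -0.00041 (Rps20) and -0.11 (Rps15). Many of the settings leave 1 array out of the same data, so they are not separate checks. The cause of these changes was not tested. With 5 arrays a group, the number of arrays limits the precision, and probe sets near the filter are close to background.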
